A study of Homo sapiens with 18 samples.

Results

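The comparison set 3 RNA-seq libraries of THP-1 cells that carried active NOTCH1 (NIC1) against 3 libraries of THP-1 cells that carried an empty vector (IRES), all after IL-4. These 6 of the 18 libraries were chosen by their construct and stimulus labels, and genes were compared across the whole count table with the experiment number as a pairing block. THP-1 is an established human monocytic leukaemia line, and the phorbol ester PMA turns it into macrophage-like cells. NIC1 cells held a retroviral MSCV vector for GFP and the MYC-tagged intracellular domain of NOTCH1, the fragment that acts in the nucleus without a ligand, whereas IRES cells held the same kind of vector with GFP and no insert. Both were sorted for GFP, were exposed for 48 h to 5 ng/ml PMA before 3 h of IL-4 at 20 ng/ml, so expression was driven by a viral promoter in pools of transduced cells that kept their own NOTCH1. The remaining groups, used only beside the comparison, were NIC1 and IRES cells without IL-4, and DNMAML cells, which carried a dominant-negative form of Mastermind-like that blocks Notch transcription, with and without IL-4.

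Notch receptors are cleaved after they bind a ligand on a neighbouring cell, and the freed intracellular domain joins the DNA-binding protein RBPJ (also called CSL) and the co-activator Mastermind to switch on genes such as those of the HES, HEY and DTX families. In blood cell development the pathway is known for committing progenitors to the T lineage, and in macrophages it is known to act beside cytokine signals. IL-4 signals through JAK kinases and STAT6 and drives macrophages towards an alternatively activated state.

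RBPJ is known to bind a short core, TGGGAA, and the 250 bases before the RefSeq start are shown for 4 genes that were higher in NIC1 cells and have that core there, 2 repressors of the HES family, a CD3 chain and the low-affinity IgE receptor. Capitals mark the core, which reads TTCCCA where it lies on the other strand. The sequences are from RefSeq on GRCh38.p14 and are written on each gene's own strand, HES1 at chr3:194135898-194136147 (plus), HES4 at chr1:1000098-1000347 (minus), CD3D at chr11:118342706-118342955 (minus) and FCER2 at chr19:7702132-7702381 (minus).
HES1: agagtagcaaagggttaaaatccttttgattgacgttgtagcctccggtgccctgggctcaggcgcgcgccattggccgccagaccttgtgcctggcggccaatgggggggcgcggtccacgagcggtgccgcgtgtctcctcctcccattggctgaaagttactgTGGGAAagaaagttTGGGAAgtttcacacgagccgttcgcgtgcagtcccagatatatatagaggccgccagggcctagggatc
HES4: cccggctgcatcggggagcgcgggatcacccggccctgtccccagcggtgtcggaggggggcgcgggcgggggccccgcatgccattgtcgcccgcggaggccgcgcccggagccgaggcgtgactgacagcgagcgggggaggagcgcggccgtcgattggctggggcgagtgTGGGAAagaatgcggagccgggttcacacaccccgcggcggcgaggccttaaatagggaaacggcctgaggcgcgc
CD3D: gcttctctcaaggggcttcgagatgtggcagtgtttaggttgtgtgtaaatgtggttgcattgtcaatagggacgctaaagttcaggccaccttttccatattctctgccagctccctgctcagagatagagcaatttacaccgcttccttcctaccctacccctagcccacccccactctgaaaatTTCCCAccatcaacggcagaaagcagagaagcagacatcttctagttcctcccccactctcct
FCER2: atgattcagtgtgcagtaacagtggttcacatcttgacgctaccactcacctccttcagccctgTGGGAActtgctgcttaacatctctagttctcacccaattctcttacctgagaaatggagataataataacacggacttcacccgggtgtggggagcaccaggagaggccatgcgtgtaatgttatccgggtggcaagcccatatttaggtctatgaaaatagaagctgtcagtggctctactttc
In HES1 the core occurs at 84 and at 70 bases before the start, both on the gene's strand, and in HES4 it occurs at 76 bases. CD3D has it on the other strand at 63 bases, and FCER2 has it at 186 bases. Across windows that run to 50 bases past the start, the core on either strand was found in 83 of 417 genes higher in NIC1 (19.9%), in 39 of 187 genes lower in NIC1 (20.9%), in 2418 of 11092 tested genes (21.8%) and in 24.3% of all windows. DTX4, NOTCH3, BHLHE40, PTCRA, CD1C, CD1A, LTB, NOTCH1, NRARP and SPARC, described with their values further on, have no such letters in their windows. CSF2 and PIGR have the core on the other strand. HEY1, DTX1, CD3G and MMP2 had no window to examine.

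Between 13443307 and 15099788 reads were counted in genes in each of the 6 libraries, and 21110 to 21557 genes had at least 1 read. Of the 12 THP-1 and monocyte markers, all were detected in each library, with a summed level of 2556 to 2717 CPM (reads of a gene scaled to a common library size, as counts per 1e6) in NIC1 cells and 2451 to 2710 CPM in IRES cells, although CD14 lay under 8 CPM and CD68 under 2 CPM. Summed markers of other cells were at 9.03 to 14.17 CPM in NIC1 and 8.078 to 12.32 CPM in IRES cells for B cells, and at 24.04 to 38.25 CPM in NIC1 and 20.93 to 23.3 CPM in IRES cells for NK cells. They were at 98.12 to 164.3 CPM in NIC1 and 85.65 to 169.5 CPM in IRES cells for fibroblasts (mostly COL1A1) and at 714.6 to 720.6 CPM in NIC1 and 630.5 to 669.9 CPM in IRES cells for endothelium (mostly PECAM1, which myeloid cells also express). Epithelial markers summed to 9.431 to 12.95 CPM in NIC1 and 13.4 to 14.66 CPM in IRES cells, and erythroid and megakaryocyte markers to 0.8811 to 2.307 CPM in NIC1 and 0.526 to 1.021 CPM in IRES cells. The libraries of experiment 2 stood apart from those of experiments 1 and 3 on the first principal component of the 6 libraries, which held 53.7% of the variance, while the second component (18.3%) separated NIC1 from IRES within every experiment. Experiment 2 also had lower interferon-stimulated genes in both constructs, at geometric means of 14.9 CPM in NIC1 cells and 10.9 CPM in IRES cells, against 35.8 and 41.3 CPM in NIC1 cells and 53.1 and 50.4 CPM in IRES cells of experiments 1 and 3. Nothing in the labels says whether the experiments used separate transductions, so the p-values speak for the variation among these libraries, some of it possibly technical.

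Active NOTCH1 changed 818 of 15037 tested genes in the presence of IL-4, which is 5.44% of them. Genes higher in NIC1 cells numbered 567 (3.77% of those tested) and genes lower in NIC1 cells 251 (1.67%), at an adjusted p under 0.05 in edgeR's quasi-likelihood test with Benjamini-Hochberg adjustment over all genes, the threshold meant wherever a gene is said to have risen, fallen or changed. Most changes were small. The median size was 0.48 on the log2 scale, 513 changed genes moved by less than 1.5-fold, and 128 moved by more than 2-fold, of which 106 were higher and 22 lower in NIC1 cells. In 816 of the 818 genes the difference had the same sign in all 3 experiments, a pattern that 5859 of all 15037 tested genes showed. A test paired by experiment favours such genes, so this agreement adds no separate support for the calls. In 414 of the 818 genes all 3 NIC1 libraries lay on the same side of all 3 IRES libraries. Of these, 301 were higher and 113 lower in NIC1. That separation was seen in 10.2% of all tested genes (5.77% with NIC1 higher and 4.43% with NIC1 lower). The median difference within an experiment of the genes higher in NIC1 was 0.594, 0.454 and 0.394 (log2) in experiments 1, 2 and 3, and that of the genes lower in NIC1 was -0.513, -0.389 and -0.369.

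**Figure D1:**
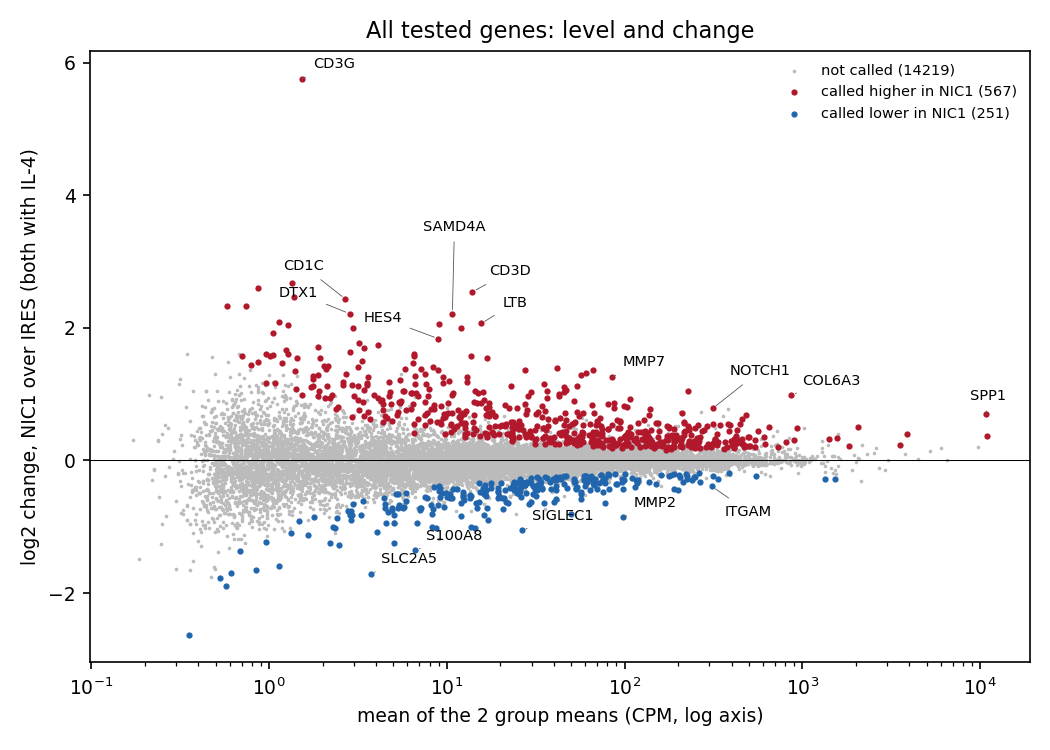
Change against level for all tested genes, with both constructs after IL-4. The x axis is the mean of the NIC1 and IRES group means in CPM on a log axis, the y axis the log2 change of NIC1 over IRES, and colours mark the 567 genes called higher and the 251 called lower in NIC1 cells. CD3G stands alone at the top, and the osteopontin gene SPP1 lies at the high end of the level axis.

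How firmly these counts stand depended on the block and on single libraries. Without the experiment number in the model, edgeR called 30 genes (0.2%), all of them among the 818, and HES4, DTX1, CD3G, CD1C, PPP1R3A, PIGR, PDE9A, PRTN3, ITGB7, SPARC, ADCY6, MMP2, CMKLR1 and LILRB1 were the genes described here among them. Without experiment 2 the count was 431, of which 374 were among the 818. Leaving out 1 library gave 338 calls without IRES replicate 1, 531 without IRES replicate 2, 440 without NIC1 replicate 1 and 567 to 628 without each of the others, and 282 genes were called in every one of these 6 fits. Counts of called list members given below are to be read beside the 5.44% of all tested genes that were called. Uncalled list members given below were, unless fixed by name, chosen after their values were seen. A gene is said to hold in every leave-out where it is one of the 282.

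The insert itself was the first gene examined. NOTCH1 (chr9:136494433-136545786, minus strand) had 368, 453 and 367 CPM in the NIC1 libraries of experiments 1, 2 and 3, against 199, 274 and 219 CPM in the IRES libraries. Every NIC1 library lay above every IRES library. The log2 change was 0.79 ± 0.055 (standard error, SE; edgeR adjusted p = 4.58e-08) and held in every leave-out, although without the block the adjusted p was 0.184. Counts of NOTCH1 include any reads of the vector insert that align to the gene. Among the other 10 tested receptors and ligands, the receptor gene NOTCH3 rose and DLK1, which encodes a membrane protein related to Notch ligands, fell. NOTCH3 (chr19:15159038-15200981, minus strand) had 206, 311 and 262 CPM in NIC1 cells and 98.7, 199 and 186 CPM in IRES cells. Its log2 change was 0.72 ± 0.12 (edgeR adjusted p = 0.00349), with an adjusted p of 0.0995 without experiment 2. DLK1 had 187, 332 and 192 CPM in NIC1 cells and 228, 416 and 246 CPM in IRES cells, a change of -0.32 ± 0.061 (adjusted p = 0.00233) in which the libraries of the constructs overlapped across experiments. NOTCH2 (0.17, adjusted p = 0.242) and the ligand gene JAG1 (0.13, adjusted p = 0.893) did not pass the test.

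Of 22 listed Notch target genes 16 were tested, and 7 rose while PTCRA fell, with a median log2 change of 0.375 over the 16 against -0.001 over all tested genes. HES4 (chr1:998962-1000172, minus strand), a repressor of the HES family, had 12.6, 15.1 and 14.1 CPM in NIC1 cells and 2.36, 4.81 and 4.74 CPM in IRES cells. The groups were far apart, with a log2 change of 1.84 ± 0.16 (edgeR adjusted p = 7.16e-07). DTX1 (chr12:113056709-113098028, plus strand), an E3 ubiquitin ligase that feeds back on Notch, had 2.81, 7.56 and 3.72 CPM in NIC1 cells and 0.591, 1.35 and 1.02 CPM in IRES cells (2.21 ± 0.23, adjusted p = 6.99e-06). HEY1 (chr8:79764010-79767863, minus strand), a repressor related to HES proteins, had 6.22, 11.7 and 9.53 CPM in NIC1 cells and 2.43, 4.36 and 5.54 CPM in IRES cells. Its log2 change was 1.15 ± 0.18 (adjusted p = 0.000373), again with no overlap between the constructs. DTX4, a relative of DTX1, had 7.49, 16.2 and 7.07 CPM in NIC1 cells and 2.30, 8.72 and 4.96 CPM in IRES cells (0.98 ± 0.19, adjusted p = 0.00306). The IRES library of experiment 2 lay above 2 NIC1 libraries of the other experiments for this gene. HES1 (chr3:194136145-194138732, plus strand), the best known target of the pathway, had 23.8, 32.5 and 24.6 CPM in NIC1 cells and 9.59, 23.1 and 14.4 CPM in IRES cells. It rose by 0.84 ± 0.17 (adjusted p = 0.00632), and the adjusted p was 0.0548 without IRES replicate 1. BHLHE40, a circadian and immune repressor, rose by 0.33 ± 0.090 (adjusted p = 0.0379), a call lost in 5 of the 6 leave-outs with adjusted p values of up to 0.232. PTCRA, the surrogate alpha chain of the pre-T cell receptor, had 2.21, 1.84 and 2.01 CPM in NIC1 cells and 4.60, 3.76 and 2.92 CPM in IRES cells. Its change of -0.90 ± 0.26 (adjusted p = 0.0441) was lost in all 6 leave-outs, with an adjusted p of up to 0.301.

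Other targets that are often read as reporters of the pathway did not pass. NRARP, a feedback inhibitor of the Notch complex, had 6.69, 10.2 and 6.47 CPM in NIC1 cells and 5.39, 8.27 and 6.05 CPM in IRES cells, and the groups overlapped (0.25 ± 0.20, edgeR adjusted p = 0.636). MYC (0.03, adjusted p = 0.951) and HEYL (0.08, adjusted p = 0.93) also did not pass, and HES5 and HEY2 were too low to be tested, with 1 read of HES5 and 5 reads of HEY2 in the 6 libraries. Of 15 tested genes for processing and glycosylation of the receptor, LFNG alone changed (6.67%, near the 5.44% of all tested genes). It encodes the sugar transferase lunatic fringe, which alters how Notch receives its ligands, and had 15.8, 32.3 and 13.1 CPM in NIC1 cells and 6.96, 22.7 and 9.26 CPM in IRES cells (0.69 ± 0.15, adjusted p = 0.00841; up to 0.0706 in 3 leave-outs). Of 25 tested genes of the nuclear complex and its regulators, the inhibitor gene NUMB alone changed (0.34 ± 0.088, adjusted p = 0.0305), a call kept in 2 of the 6 leave-outs. That is 4% of the list, again near the share of all tested genes. RBPJ had 196, 184 and 164 CPM in NIC1 cells and 172, 174 and 163 CPM in IRES cells (0.09 ± 0.067, adjusted p = 0.566), and MAML1 changed by 0.04 ± 0.077 (adjusted p = 0.895).

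**Figure D2:**
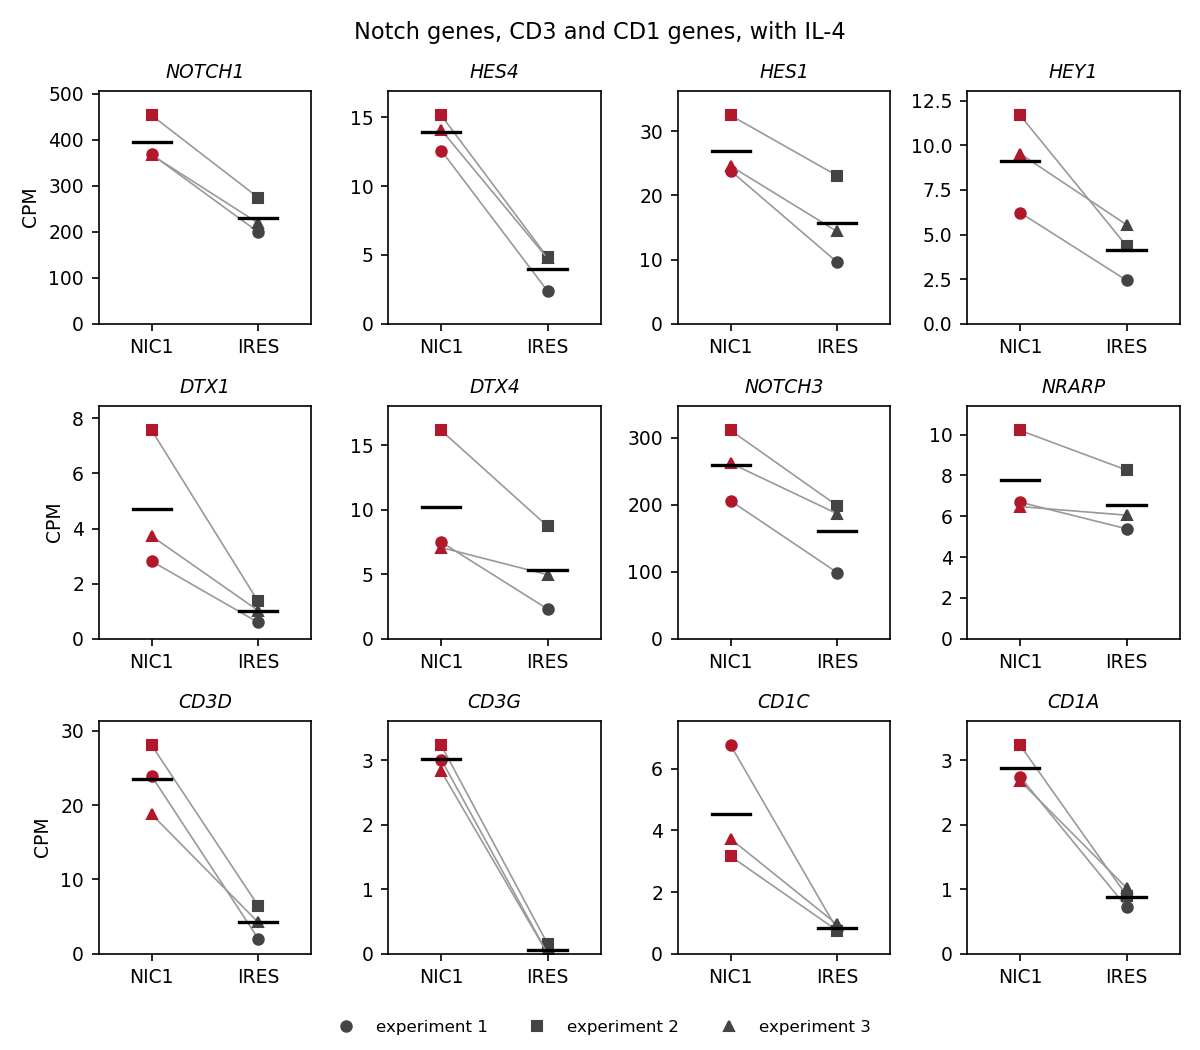
Levels of Notch genes, CD3 chains and CD1 genes in each library, in CPM on linear axes from 0, with NIC1 on the left and IRES on the right of each panel, both after IL-4. Symbols mark the experiment, thin lines join libraries of the same experiment, and bars are means of 3 libraries. HES4, HEY1, CD3D, CD3G, CD1C and CD1A show no overlap between constructs, whereas those of NRARP overlap.

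The largest change in the table was that of the T cell gene CD3G, and its neighbour CD3D on chromosome 11 rose as well. CD3G (chr11:118344344-118355161, plus strand), the gamma chain of the T cell receptor complex, had 3.01, 3.23 and 2.83 CPM in NIC1 cells and 0, 0.15 and 0 CPM in IRES cells. These levels rest on 127 reads in NIC1 cells and 2 reads in IRES cells, a ratio of 63.9 with an exact 95% interval of 17.3 to 533 for counting error only (edgeR adjusted p = 5.76e-06). CD3D (chr11:118338954-118342744, minus strand), the delta chain, had 23.9, 28 and 18.8 CPM in NIC1 cells and 2.04, 6.46 and 4.23 CPM in IRES cells. Its log2 change was 2.54 ± 0.30 (adjusted p = 0.000228), and both chains held in every leave-out. CD3E, the third chain in that cluster, had 1 read in each NIC1 library and none in the IRES libraries and was not tested. CD6, a T cell surface receptor, rose less, with 19.6, 23.5 and 25.5 CPM in NIC1 cells and 11.8, 14 and 17.4 CPM in IRES cells (0.67 ± 0.092, adjusted p = 0.000102). TRAC, the constant region of the T cell receptor alpha chain, had 92.5, 105 and 91.2 CPM in NIC1 cells and 75.5, 89.1 and 81.7 CPM in IRES cells. Its small change (0.23 ± 0.062, adjusted p = 0.0309) was lost in 5 of 6 leave-outs. In all, 4 of 15 tested T lineage genes rose and none fell, and the kinase gene LCK (-0.14) and the factor gene BCL11B (-0.64) were among those that did not pass. The 11 T cell markers summed to 114.9 to 138 CPM in NIC1 cells and 78.49 to 97.32 CPM in IRES cells, 4 of them were detected in all 6 libraries, and CD5 was at 0. Whether a few other cells took part in these levels was not tested.

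The CD1 family of antigen-presenting molecules shows lipids to T cells, and its genes lie together on chromosome 1. Its 3 tested genes rose together, while CD1B and CD1E were not among the tested genes. CD1C (chr1:158289786-158293630, plus strand) had 6.76, 3.16 and 3.72 CPM in NIC1 cells and 0.788, 0.751 and 0.948 CPM in IRES cells (2.43 ± 0.30, edgeR adjusted p = 3.52e-05). CD1A had 2.74, 3.23 and 2.68 CPM in NIC1 cells and 0.722, 0.902 and 1.02 CPM in IRES cells (1.71 ± 0.36, adjusted p = 0.00565). CD1D had 15.3, 18.6 and 14.5 CPM in NIC1 cells and 11.3, 9.09 and 8.24 CPM in IRES cells (0.75 ± 0.15, adjusted p = 0.00395). In each of the 3 genes every NIC1 library lay above every IRES library. The adjusted p of CD1A was 0.0535 without IRES replicate 1 and 0.0719 without IRES replicate 2, and that of CD1D was 0.0625 without experiment 2. The 7 tested genes of MHC class II and its control, which present peptides, did not pass the test, with log2 changes from 0.48 for HLA-DRA to -0.44 for HLA-DMB.

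Several other genes with no listed role rose by as much. SAMD4A, an RNA-binding repressor of translation, had 13.8, 22.1 and 16.6 CPM in NIC1 cells and 2.43, 6.61 and 2.84 CPM in IRES cells, a change of 2.21 ± 0.19 with an edgeR adjusted p of 5.57e-07 that held in every leave-out. PIGR, the receptor that carries IgA and IgM across epithelia, had 6.15, 2.50 and 5.58 CPM in NIC1 cells and 0.722, 1.20 and 1.6 CPM in IRES cells (2.0 ± 0.27, adjusted p = 7.51e-05). PPP1R3A, a glycogen-targeting subunit of protein phosphatase 1, rose by 2.67 ± 0.38 (adjusted p = 0.00018) and TPRG1 by 2.0 ± 0.24 (adjusted p = 9.28e-05). These 4 genes had no overlap between constructs. SETBP1, which encodes a DNA-binding protein mutated in myeloid neoplasms, had 13, 15 and 14.8 CPM in NIC1 cells and 1.44, 7.29 and 2.92 CPM in IRES cells. Its change of 2.05 ± 0.36 (adjusted p = 0.00392) did not pass when the 6 libraries were fitted alone with the block (adjusted p = 0.144). ARNT2, a partner of bHLH-PAS factors, rose by 1.58 ± 0.24 (adjusted p = 0.000525), TREM1, an activating receptor of myeloid cells, by 1.69 ± 0.22 (adjusted p = 5.94e-05), and ENTPD2, an ectonucleotidase, by 1.77 ± 0.27 (adjusted p = 0.000309). CMKLR1, the receptor for the attractant chemerin, and HSD11B2, which inactivates cortisol, were chosen after their values were seen. CMKLR1 had 2.27, 2.13 and 1.12 CPM in NIC1 cells and 0.197, 0.601 and 0.511 CPM in IRES cells (2.09 ± 0.37, adjusted p = 0.00137). HSD11B2 had 0.468, 1.91 and 1.34 CPM in NIC1 cells and 0.0657, 0.526 and 0.146 CPM in IRES cells (2.32 ± 0.45, adjusted p = 0.00302).

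Some genes of the IL-4 response were higher in NIC1 cells, as was IL2RG of the IL-4 receptor, while IL4R and STAT6 did not pass the test. In the list of IL-4 and STAT6 responses, 7 of 27 tested genes were called higher and 0 lower, with a median log2 change of 0.235. Without IL-4, 5 members of the list were called higher in NIC1 cells and 0 lower, FCER2 and CD1A not among them. The log2 change without IL-4 was 0.83 for CD36, 0.39 for TGFB1 and 0.61 for IL2RG. These are thus differences between constructs and were not shown to be a stronger response to IL-4. FCER2 (chr19:7688758-7702146, minus strand), the low-affinity IgE receptor CD23, had 2.34, 2.28 and 1.56 CPM in NIC1 cells and 0.657, 0.451 and 0.365 CPM in IRES cells. The groups did not overlap (2.04 ± 0.38, edgeR adjusted p = 0.00232). CD36, a scavenger receptor for oxidised lipids, had 46.4, 23.1 and 34.8 CPM in NIC1 cells and 28.2, 15.4 and 20.2 CPM in IRES cells (0.70 ± 0.12, adjusted p = 0.00165). TGFB1, the cytokine TGF-beta 1, had 817, 1561 and 848 CPM in NIC1 cells and 492, 1166 and 678 CPM in IRES cells (0.49 ± 0.087, adjusted p = 0.00158). For CD36 and TGFB1 the constructs overlapped across experiments but not within any of them. The other 4 were CD1C and CD1A, given above, the scaffold gene HOMER2 (0.67 ± 0.16, adjusted p = 0.0149) and the protease gene CTSC (0.27 ± 0.068, adjusted p = 0.0179), which lost the call in 3 and 4 leave-outs (adjusted p up to 0.123 and 0.125).

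The feedback inhibitors that IL-4 raises most did not differ between constructs beyond their spread. CISH had 110, 108 and 111 CPM in NIC1 cells and 125, 99.6 and 116 CPM in IRES cells (-0.04 ± 0.075, edgeR adjusted p = 0.878). SOCS1 had 49.4, 45.1 and 56.6 CPM in NIC1 cells and 60.8, 39.4 and 57.9 CPM in IRES cells (-0.05 ± 0.12, adjusted p = 0.909). The lipoxygenase gene ALOX15 had 11.8, 9.32 and 13.1 CPM in NIC1 cells and 10.9, 10.1 and 9.99 CPM in IRES cells (0.13 ± 0.13, adjusted p = 0.739). A further 3 genes gave another answer in a fit of the 6 libraries alone. The chemokine gene CCL22 had 74.6, 95.5 and 84.0 CPM in NIC1 cells and 45.5, 63.5 and 71.5 CPM in IRES cells, with adjusted p = 0.234 over 18 libraries and 0.00792 in the 6 alone, both with the block. The transglutaminase gene TGM2, a marker of alternative activation, had 984, 921 and 934 CPM in NIC1 cells and 827, 635 and 766 CPM in IRES cells (adjusted p = 0.685 and 0.00447). The nuclear receptor gene PPARG had 39.3, 30.3 and 35.2 CPM in NIC1 cells and 30.3, 20.6 and 33.5 CPM in IRES cells (adjusted p = 0.109 and 0.049). KLF4 (0.24) and the lectin gene CD209 (0.03) did not pass in either.

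Among 31 tested genes of IL-4 receptor signalling 3 rose and 1 fell. IL2RG, the common gamma chain of the type I IL-4 receptor, had 90.8, 152 and 95 CPM in NIC1 cells and 61.4, 106 and 60.2 CPM in IRES cells (0.58 ± 0.084, edgeR adjusted p = 0.000262). IL13RA1, the chain that replaces it in the type II receptor, had 182, 130 and 169 CPM in NIC1 cells and 278, 157 and 223 CPM in IRES cells (-0.43 ± 0.065, adjusted p = 0.000286). The 2 chains thus moved in opposite directions, each in every experiment and every leave-out. PTPN6, the phosphatase SHP-1 that restrains cytokine receptors, had 467, 511 and 446 CPM in NIC1 cells and 323, 425 and 363 CPM in IRES cells (0.36 ± 0.057, adjusted p = 0.000442). The adaptor gene IRS2 rose by 0.27 ± 0.073 (adjusted p = 0.0299), a call lost in 4 leave-outs. IL4R had 168, 186 and 203 CPM in NIC1 cells and 195, 151 and 190 CPM in IRES cells (0.07 ± 0.11, adjusted p = 0.864), and STAT6 had 136, 154 and 155 CPM in NIC1 cells and 111, 146 and 140 CPM in IRES cells (0.17 ± 0.062, adjusted p = 0.122).

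To place IL-4 genes chosen on other libraries, the IL-4 response was taken from DNMAML cells, where edgeR called 1496 of the tested genes (9.95%) between cells with and without IL-4. Of these, 254 (17.0%) differed between NIC1 and IRES cells, 195 higher and 59 lower in NIC1. Both contrasts came from the same fit of 18 libraries and share its estimate of each gene's spread. A gene with a low estimate is more readily called in both, so the list is not fully separate from the comparison. This count was 4 without the block, 121 without experiment 2, 115 without IRES replicate 1 and 140 without NIC1 replicate 1. It was 172 without DNMAML replicate 3 with IL-4 and IRES replicate 3 without IL-4. That DNMAML library, which helps to define the IL-4 response, had 25322 genes with at least 1 read and 30.9% of reads in no gene. The 753 genes that IL-4 raised held 78 higher and 30 lower in NIC1 cells, with a median log2 change of 0.031, and the 743 that IL-4 lowered held 117 higher and 29 lower, with a median of 0.062. Among genes at 250 CPM or more 32.7% of the IL-4 responsive genes and 9.34% of the others were called, and from 2 to 10 CPM these shares were 9.91% and 4.54%. SETBP1, FCER2, CSF2, TPRG1 and the chemokine gene CCL4 were among the genes raised by IL-4 and higher in NIC1, whereas GBP1 and the glycosyltransferase gene B3GNT5 were raised by IL-4 and lower in NIC1.

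Of 35 tested cytokines and chemokines 10 rose and none fell, and 25 were not called. The log2 change was above 0 in 26 of the 35 and below 0 in 9, with a median of 0.457. LTB (chr6:31580525-31582522, minus strand), which encodes lymphotoxin beta, had 22.4, 32.7 and 19.6 CPM in NIC1 cells and 3.42, 11.9 and 3.72 CPM in IRES cells, with no overlap (2.07 ± 0.26, edgeR adjusted p = 0.000446). TNF lies next to it and had 7.69, 17.2 and 4.02 CPM in NIC1 cells and 1.18, 7.44 and 1.82 CPM in IRES cells (1.6 ± 0.41, adjusted p = 0.0441). CSF2, the growth factor GM-CSF, had 2.34, 3.30 and 1.34 CPM in NIC1 cells and 0.197, 0.902 and 0.219 CPM in IRES cells (2.46 ± 0.41, adjusted p = 0.000691). LTB, CSF2 and TGFB1 held in every leave-out. IL1B, interleukin 1 beta, had 119, 326 and 88.8 CPM in NIC1 cells and 63.8, 176 and 62.7 CPM in IRES cells (0.78 ± 0.18, adjusted p = 0.0323). IL23A, a subunit of interleukin 23, had 9.10, 18.4 and 12.1 CPM in NIC1 cells and 4.79, 8.64 and 8.10 CPM in IRES cells (0.87 ± 0.20, adjusted p = 0.0174). In both genes experiment 2 held the highest library of either construct. The chemokine genes CCL1 (1.12 ± 0.26, adjusted p = 0.0298), CCL7 (1.13 ± 0.31, adjusted p = 0.0334), CCL4 (0.81 ± 0.17, adjusted p = 0.00531) and CCL3 (0.60 ± 0.16, adjusted p = 0.043) rose as well. Leaving out 1 library ended the calls of TNF and IL1B in 5 of 6 cases (adjusted p up to 0.182 and 0.167), CCL1 in 6 (up to 0.153), CCL7 in 5 (up to 0.226), CCL3 in 4 (up to 0.216), IL23A in 3 (up to 0.119) and CCL4 in 1 (0.0615). CXCL8 (0.13) and CCL2 (0.11) did not pass, nor did CXCL10 (-1.19, adjusted p = 0.227), which had 7.56, 1.25 and 7.37 CPM in NIC1 cells and 23.2, 1.20 and 13.9 CPM in IRES cells.

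Of 17 tested immediate early genes, which respond within minutes to growth factor and stress signals, 8 rose and none fell. DUSP1, DUSP2, DUSP5 and DUSP6 encode phosphatases that switch off MAP kinases. DUSP5 had 54.0, 130 and 57.2 CPM in NIC1 cells and 14.1, 55.5 and 32.8 CPM in IRES cells (1.29 ± 0.24, edgeR adjusted p = 0.00864). DUSP1 had 34.4, 89.9 and 43.8 CPM in NIC1 cells and 11.5, 49.8 and 26.0 CPM in IRES cells (1.00 ± 0.14, adjusted p = 0.000434). In both genes the IRES library of experiment 2 lay above or close to the NIC1 libraries of the other experiments, while NIC1 was higher within each experiment. DUSP2 changed by 1.07 ± 0.22 (adjusted p = 0.0142) and DUSP6 by 0.32 ± 0.086 (adjusted p = 0.0326). The AP-1 genes JUND (0.32), JUNB (0.30) and FOSL2 (0.25) and the mRNA decay factor gene ZFP36 (0.36) rose by less than 1.5-fold, and FOS (0.04) and JUN (-0.07) did not pass. Only DUSP1 among the 8 held in every leave-out, and it was the only one of them called without experiment 2, the other 7 having adjusted p values of up to 0.201 in single leave-outs. Of 18 tested genes of the NF-kappaB pathway, the adaptor gene TRAF1 (0.39 ± 0.086, adjusted p = 0.00808) and the inhibitor gene NFKBIA (0.29 ± 0.082, adjusted p = 0.0475) rose, and neither held in every leave-out (adjusted p up to 0.0934 for TRAF1 and 0.237 for NFKBIA).

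**Figure D3:**
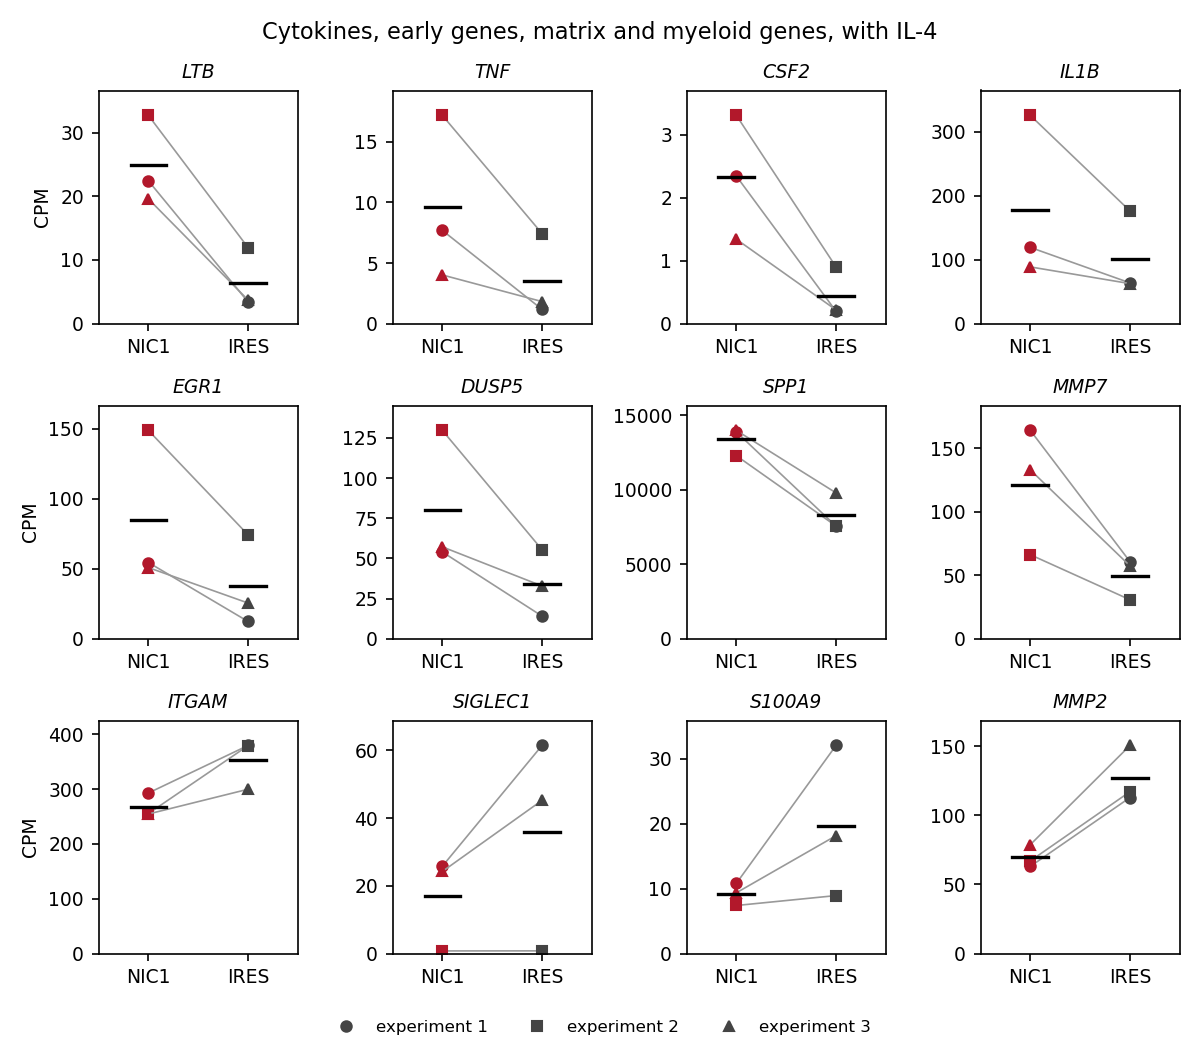
Levels of cytokine, early, matrix and myeloid genes in each library, in CPM on linear axes from 0, with NIC1 on the left and IRES on the right of each panel, both after IL-4. Symbols mark the experiment, thin lines join libraries of the same experiment, and bars are means of 3 libraries. LTB, SPP1, MMP7, ITGAM and MMP2 show no overlap between constructs, whereas TNF, IL1B and EGR1 are highest in experiment 2 in both constructs.

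Extracellular matrix and protease genes included the most abundant transcripts that changed. SPP1 (chr4:87975650-87983426, plus strand), the secreted adhesion protein osteopontin, had 13867, 12276 and 13970 CPM in NIC1 cells and 7553, 7562 and 9786 CPM in IRES cells. It rose by 0.70 ± 0.095 (edgeR adjusted p = 8.78e-05) and held in every leave-out. MMP9, the gelatinase of macrophages, had 11026, 15218 and 10627 CPM in NIC1 cells and 7788, 12281 and 8693 CPM in IRES cells (0.37 ± 0.068, adjusted p = 0.00187). TIMP1, which inhibits such proteases, had 2072, 2783 and 2353 CPM in NIC1 cells and 1220, 1925 and 2024 CPM in IRES cells (0.50 ± 0.098, adjusted p = 0.00368; 0.123 without experiment 2). The protease gene MMP7, matrilysin, had 164, 66.1 and 133 CPM in NIC1 cells and 60.7, 30.7 and 57.3 CPM in IRES cells, more than 2-fold higher in every experiment (1.26 ± 0.11, adjusted p = 6.99e-06). MMP2, the second gelatinase, went the other way, at 63.1, 67.0 and 78.8 CPM in NIC1 cells and 113, 117 and 150 CPM in IRES cells (-0.86 ± 0.076, adjusted p = 9.39e-07). SPARC, a matricellular protein, also fell, with 42.9, 48.9 and 49.5 CPM in NIC1 cells and 71.2, 65.2 and 64.3 CPM in IRES cells (-0.50 ± 0.081, adjusted p = 0.000531). In all, 5 of 29 tested members rose and 2 fell, and among the 22 that did not pass was the fibronectin gene FN1 (-0.60, adjusted p = 0.225).

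Integrins, the receptors for matrix and for other cells, had 4 of 18 tested members higher and 1 lower. ITGB7, a chain of the gut-homing integrin of lymphocytes, had 555, 516 and 508 CPM in NIC1 cells and 338, 338 and 407 CPM in IRES cells (0.55 ± 0.067, edgeR adjusted p = 3.37e-05). ITGB3 (0.41 ± 0.068, adjusted p = 0.000622), ITGA3 (0.44 ± 0.095, adjusted p = 0.00951) and ITGAX, the CD11c chain of dendritic cells and macrophages (0.32 ± 0.061, adjusted p = 0.00264), rose too. ITGAM, the CD11b chain of myeloid cells, had 293, 256 and 255 CPM in NIC1 cells and 380, 379 and 300 CPM in IRES cells (-0.39 ± 0.065, adjusted p = 0.000654). The chains CD11c and CD11b therefore moved in opposite directions, and all 5 calls but that of ITGA3 held in every leave-out (adjusted p of ITGA3 0.0823 without IRES replicate 1 and 0.056 without NIC1 replicate 1).

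Macrophage identity and scavenger receptor genes were the list with the most falls, 9 of 31 tested members, against 6 that rose, and 23 of the 31 had a log2 change below 0 (median -0.195). SIGLEC1, the sialic acid receptor CD169 of resident macrophages, had 25.8, 0.808 and 24.3 CPM in NIC1 cells and 61.4, 0.827 and 45.2 CPM in IRES cells (-1.05 ± 0.20, edgeR adjusted p = 0.00737). In experiment 2 it was barely detected in either construct. GPNMB, a glycoprotein of lipid-laden macrophages, had 74.6, 54.3 and 52.5 CPM in NIC1 cells and 124, 71.8 and 89.8 CPM in IRES cells (-0.64 ± 0.14, adjusted p = 0.0146). The apolipoprotein gene APOC1 had 109, 54.2 and 88.2 CPM in NIC1 cells and 146, 71.1 and 122 CPM in IRES cells (-0.43 ± 0.089, adjusted p = 0.0072), and its neighbour APOE changed by -0.28 ± 0.072 (adjusted p = 0.0246). The lysozyme gene LYZ (-0.38 ± 0.083, adjusted p = 0.0077), the HDL receptor gene SCARB1 (-0.34 ± 0.076, adjusted p = 0.00864), the lipid receptor gene TREM2 (-0.29 ± 0.065, adjusted p = 0.00808) and the costimulator gene CD86 (-0.21 ± 0.060, adjusted p = 0.0485) were also lower in NIC1 cells. Besides SPP1, CD36 and ITGAX, the genes that rose were LGMN, a lysosomal protease (0.76 ± 0.18, adjusted p = 0.0126), and MERTK and AXL, receptor kinases that clear apoptotic cells (0.53 ± 0.079, adjusted p = 0.000283, and 0.41 ± 0.12, adjusted p = 0.0475). ITGAM, ITGAX, CD36, MERTK and SPP1 held in every leave-out. The rest lost the call in 1 leave-out (APOC1) to 5 (AXL and CD86), with the highest adjusted p at 0.425 for CD86 without IRES replicate 1. For SIGLEC1 it was 0.0828 without IRES replicate 1, 0.0651 without NIC1 replicate 1 and 0.0627 without NIC1 replicate 3.

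Receptors that bind antibodies or sugars split evenly, with 2 of 15 tested members higher and 2 lower. Beside FCER2, the signalling chain gene FCER1G rose, with 248, 310 and 210 CPM in NIC1 cells and 150, 212 and 160 CPM in IRES cells (0.56 ± 0.088, edgeR adjusted p = 0.00075). FCGR1A, the high-affinity IgG receptor, had 9.77, 4.99 and 7.37 CPM in NIC1 cells and 15.6, 7.89 and 8.97 CPM in IRES cells (-0.55 ± 0.14, adjusted p = 0.025). CLEC7A, the beta-glucan receptor dectin-1, had 93.0, 34.9 and 78.3 CPM in NIC1 cells and 137, 42.5 and 103 CPM in IRES cells (-0.43 ± 0.12, adjusted p = 0.0412). Both falls were lost in 5 of 6 leave-outs, with adjusted p values of up to 0.193 for FCGR1A and 0.274 for CLEC7A.

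Falls of more than 2-fold were few, and the strongest among genes of at least 2 CPM was SLC2A5, the fructose transporter GLUT5. It had 2.27, 0.881 and 2.01 CPM in NIC1 cells and 10.5, 2.86 and 3.79 CPM in IRES cells (-1.71 ± 0.26, edgeR adjusted p = 0.000414). The alarmin genes S100A8 and S100A9, whose proteins form calprotectin, fell by 1.35 ± 0.34 (adjusted p = 0.0372) and 1.02 ± 0.25 (adjusted p = 0.0298) on the log2 scale. S100A9 had 10.8, 7.42 and 9.38 CPM in NIC1 cells and 32.1, 8.94 and 18.2 CPM in IRES cells, so that experiment 2 showed little of the difference. Each of these 2 genes lost the call in 4 leave-outs, with adjusted p values of up to 0.297 and 0.228 without NIC1 replicate 1. CYP27A1, the sterol 27-hydroxylase, had 6.69, 4.92 and 5.51 CPM in NIC1 cells and 14.8, 8.34 and 11.8 CPM in IRES cells, with no overlap (-1.02 ± 0.13, adjusted p = 4.39e-05). PRSS8, a membrane-anchored protease (-1.27 ± 0.23, adjusted p = 0.00155), the kinesin gene KIF26A (-1.25 ± 0.22, adjusted p = 0.00115), CRISPLD1 (-1.08 ± 0.20, adjusted p = 0.00166) and TMEM176B, a membrane protein of immature dendritic cells (-1.01 ± 0.16, adjusted p = 0.000606), fell and held in every leave-out. TMEM176B overlaps its neighbour TMEM176A on the other strand. The strand setting of the counting is not given in the sources used here, so some reads of the 2 may be mixed. TMEM176A had its own counts and changed by -0.73 ± 0.19 (edgeR adjusted p = 0.0268), a call lost in 4 leave-outs.

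Transcription factors of blood lineages had 7 of 41 tested members higher and 2 lower. MAF (chr16:79585843-79600714, minus strand), a factor of both macrophages and T cells, had 16.4, 18.7 and 24.6 CPM in NIC1 cells and 8.08, 8.64 and 13 CPM in IRES cells, with no overlap (1.01 ± 0.13, edgeR adjusted p = 4.39e-05). EGR1 had 54.4, 149 and 50.8 CPM in NIC1 cells and 12.3, 74.2 and 25.5 CPM in IRES cells (1.32 ± 0.24, adjusted p = 0.00808), and its relative EGR3 had 37.5, 63.9 and 42.3 CPM in NIC1 cells and 11.7, 32.7 and 22.1 CPM in IRES cells (1.16 ± 0.16, adjusted p = 0.000715). The adjusted p of EGR1 was 0.103 without experiment 2 and 0.203 in the 6 libraries alone with the block. The orphan receptor genes NR4A1 (1.11 ± 0.22, adjusted p = 0.0111) and NR4A3 (0.72 ± 0.13, adjusted p = 0.00357), MAFF (0.57 ± 0.14, adjusted p = 0.014) and RUNX3 (0.27 ± 0.062, adjusted p = 0.0118) rose, and IRF5 (-0.41 ± 0.11, adjusted p = 0.0278) and TFEC (-0.44 ± 0.10, adjusted p = 0.00995), both factors of macrophages, fell. MAF, EGR1, EGR3 and NR4A3 held in every leave-out, and NR4A1 did in 2 of 6 (adjusted p up to 0.0737), while MAFF, RUNX3, IRF5 and TFEC lost the call in 2 to 5 (up to 0.255). The myeloid master factor genes SPI1 (0.04, adjusted p = 0.828) and CEBPA (0.00) and the T cell factor gene GATA3 (0.08) did not pass.

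Of 11 tested genes of lipid mediator synthesis 3 rose, 2 fell and 6 were not called, among them the cyclooxygenase gene PTGS2 (0.56, edgeR adjusted p = 0.115) and the prostaglandin E synthase gene PTGES (-0.50, adjusted p = 0.701). PTGS1, the cyclooxygenase COX-1, had 965, 1065 and 956 CPM in NIC1 cells and 751, 803 and 870 CPM in IRES cells (0.30 ± 0.067, edgeR adjusted p = 0.00846), and TBXAS1, thromboxane synthase, had 16.9, 25.3 and 15.2 CPM in NIC1 cells and 6.50, 14 and 8.10 CPM in IRES cells (1.04 ± 0.15, adjusted p = 0.000159). PLA2G7, which breaks down platelet-activating factor, rose by 1.41 ± 0.26 (adjusted p = 0.00156). The leukotriene pathway genes ALOX5 and ALOX5AP fell by 0.39 ± 0.097 (adjusted p = 0.023) and 0.25 ± 0.063 (adjusted p = 0.0206) on the log2 scale. TBXAS1 and PLA2G7 held in every leave-out, and the other 3 lost the call in 4 of 6 (adjusted p up to 0.0767 for PTGS1, 0.13 for ALOX5 and 0.188 for ALOX5AP).

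In cyclic AMP and G protein signalling, 2 of 23 tested members rose and 1 fell. ADCY6, an adenylyl cyclase that makes cyclic AMP, had 20.7, 23.3 and 26.1 CPM in NIC1 cells and 35.9, 37.0 and 35.2 CPM in IRES cells (-0.63 ± 0.095, edgeR adjusted p = 0.000299). PDE4A, a phosphodiesterase that breaks it down, had 205, 258 and 243 CPM in NIC1 cells and 164, 203 and 189 CPM in IRES cells (0.34 ± 0.075, adjusted p = 0.00756). The phosphodiesterase genes PDE9A and PDE8B, outside that list and among the 20 largest rises, had changes of 1.74 ± 0.21 (adjusted p = 2.49e-05) and 1.63 ± 0.21 (adjusted p = 5.55e-05). RGS19, which shortens G protein signals, rose by 0.21 ± 0.052 (adjusted p = 0.0165). PDE4A and RGS19 lost the call in 2 and 4 leave-outs (adjusted p up to 0.0828 and 0.115).

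Smaller numbers changed in the remaining lists, and 5.44% of all tested genes were called. The shares called were 16.7% for granule and progenitor genes and 8.33% for survival and apoptosis genes. They were 7.14% for sterol and lipid genes and 6.9% for glycolysis and hypoxia. Apart from the first, these shares lie near that of all tested genes. Of 12 tested granule and progenitor genes, PRTN3, a neutrophil serine protease, had 72.0, 62.9 and 65.7 CPM in NIC1 cells and 35.5, 47.6 and 38.8 CPM in IRES cells (0.73 ± 0.12, edgeR adjusted p = 0.00133), and the bactericidal protein gene BPI rose by 0.51 ± 0.11 (adjusted p = 0.00808). Of 24 survival and apoptosis genes, the BCL2 relatives BCL2A1 (0.66 ± 0.12, adjusted p = 0.00154) and MCL1 (0.24 ± 0.054, adjusted p = 0.0085) rose. Sterol and lipid genes gave 1 rise, the lipase gene LPL (0.78 ± 0.19, adjusted p = 0.0174), and 1 fall, the sterol exporter gene ABCG1 (-0.66 ± 0.19, adjusted p = 0.0435), among 28. In glycolysis and hypoxia NDRG1 rose (0.32 ± 0.091, adjusted p = 0.049) and SLC2A5 fell among 29. No member of the unfolded protein response (21) or of the mitochondrially encoded genes (13) was called. PRTN3, BCL2A1 and SLC2A5 held in every leave-out, whereas BPI lost the call in 2 leave-outs, MCL1 in 3, and LPL, ABCG1 and NDRG1 in 5, with adjusted p values between 0.0763 and 0.325 at the highest.

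None of the 33 tested members of the cell cycle list was called, and 26 of them had a log2 change below 0, with a median of -0.148. Outside the list, and chosen after their values were seen, the cohesion regulator gene CDCA5 (-0.49, edgeR adjusted p = 0.0149), the thymidine kinase gene TK1 (-0.43, adjusted p = 0.0426), E2F8 (-0.57, adjusted p = 0.0391) and the kinetochore gene SPC24 (-0.49, adjusted p = 0.0443) fell. Each of these 4 lost the call in 4 or 5 leave-outs (adjusted p up to 0.315). CDK1, which drives entry into mitosis, had 31.8, 14 and 25.1 CPM in NIC1 cells and 39.5, 22.8 and 32.0 CPM in IRES cells (-0.43 ± 0.13, edgeR adjusted p = 0.0615). Interferon-stimulated genes leaned the same way, with 33 of 36 below 0 and a median of -0.186. The GTPase genes GBP1 and GBP2 were called, which is 5.56% of the list against 5.44% of all tested genes. GBP1 had 11.0, 3.23 and 10.9 CPM in NIC1 cells and 27.1, 3.38 and 16.6 CPM in IRES cells (-0.83 ± 0.20, adjusted p = 0.0208), and GBP2 changed by -0.49 ± 0.12 (adjusted p = 0.0202). The call of GBP1 was lost in 3 leave-outs and that of GBP2 in 4, with the highest adjusted p without IRES replicate 1 (0.322 and 0.211). The geometric mean of the list was lower in NIC1 cells in experiments 1 and 3 and higher in experiment 2, as the values given with the depth show.

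**Figure D4:**
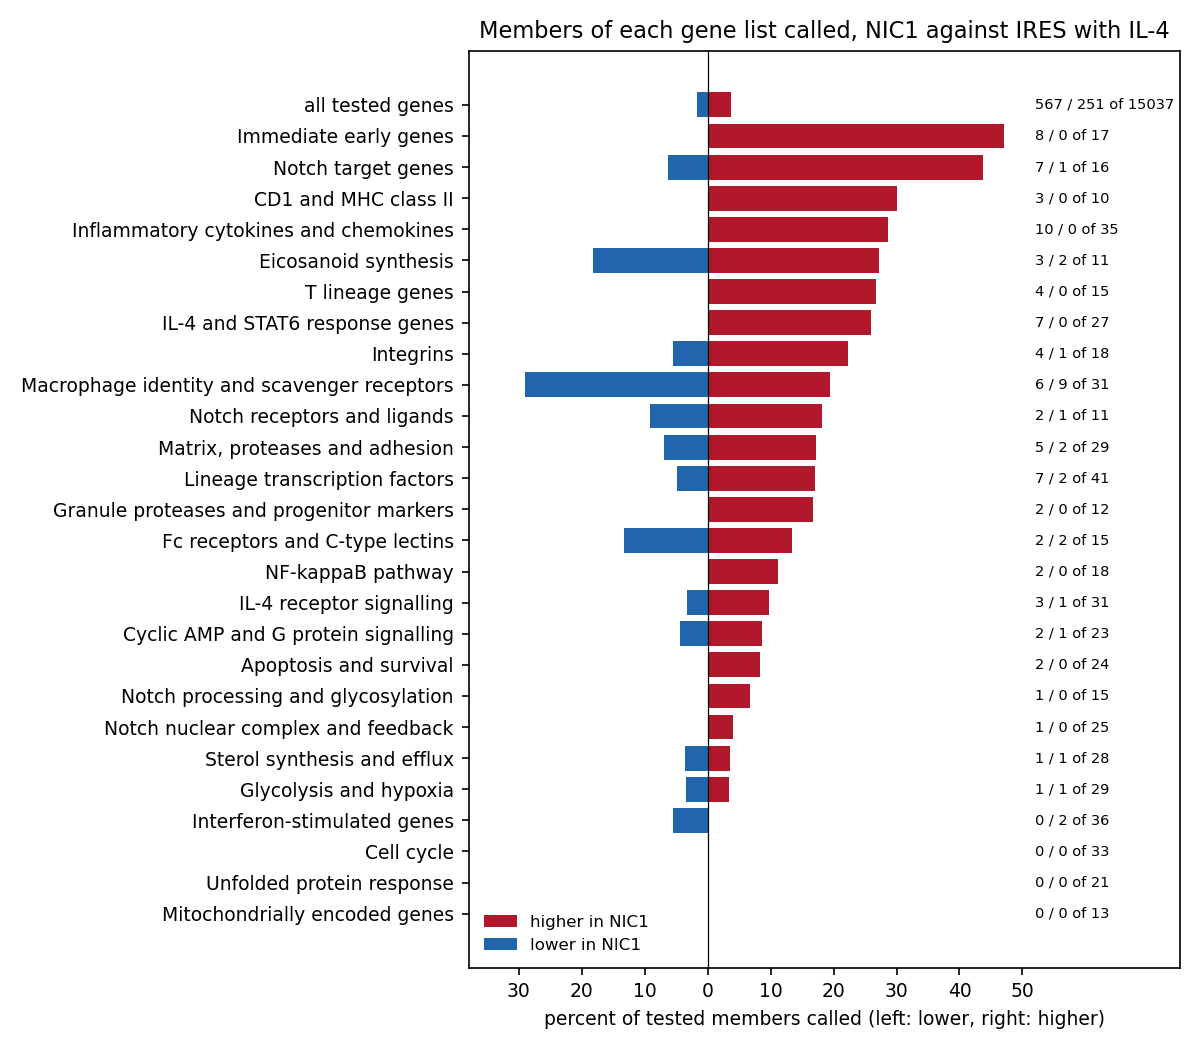
Share of tested members of each pathway list called higher (red, right) and lower (blue, left) in NIC1 against IRES cells after IL-4, in percent, with the counts higher / lower of tested at the right edge. All tested genes stand in the top row with 567 higher and 251 lower of 15037, and the immediate early genes (8 of 17) and Notch targets (7 of 16) have the largest shares called higher among the pathway lists drawn.

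To see whether the effect of NIC1 depended on IL-4, the same contrast was taken without IL-4, in 6 other libraries of the same model. There edgeR called 808 genes (5.37%), 517 higher (3.44%) and 291 lower (1.94%) in NIC1 cells. Of these, 507 were also called with IL-4 in the same direction, 62.0% of the 818 and 62.7% of the 808. The libraries without IL-4 shared construct, experiment number and the fit's estimate of spread with the compared ones. This overlap is therefore not support from separate data. The test of the difference itself was NIC1 over IRES with IL-4 minus NIC1 over IRES without it. It called 0 of 15037 genes in edgeR, with 366 at an unadjusted p under 0.05. It called 0 in DESeq2 and 0 in limma-voom (174 and 739 at an unadjusted p under 0.05). The counts of 366 and 174 are fewer than would be expected with no true difference. Only limma-voom modelled the correlation between libraries of the same construct and experiment (0.288), so the other 2 tests may be too strict here. The 0 calls therefore do not show that the effect was the same with and without IL-4. HES4 had log2 changes of 1.84 with IL-4 and 2.15 without, CD3D 2.54 and 2.66, MAF 1.01 and 1.11, and MMP2 -0.86 and -0.87. DTX4 was called with IL-4 (0.98) and not without (0.28, edgeR adjusted p = 0.585), and PDE4A likewise (0.34 and -0.00), but their difference did not pass (0.70 ± 0.30 and 0.35 ± 0.11, adjusted p = 1.00 for both). CSF2 had 25 reads in NIC1 cells and 1 read in IRES cells without IL-4, too few to set beside its change with IL-4.

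**Figure D5:**
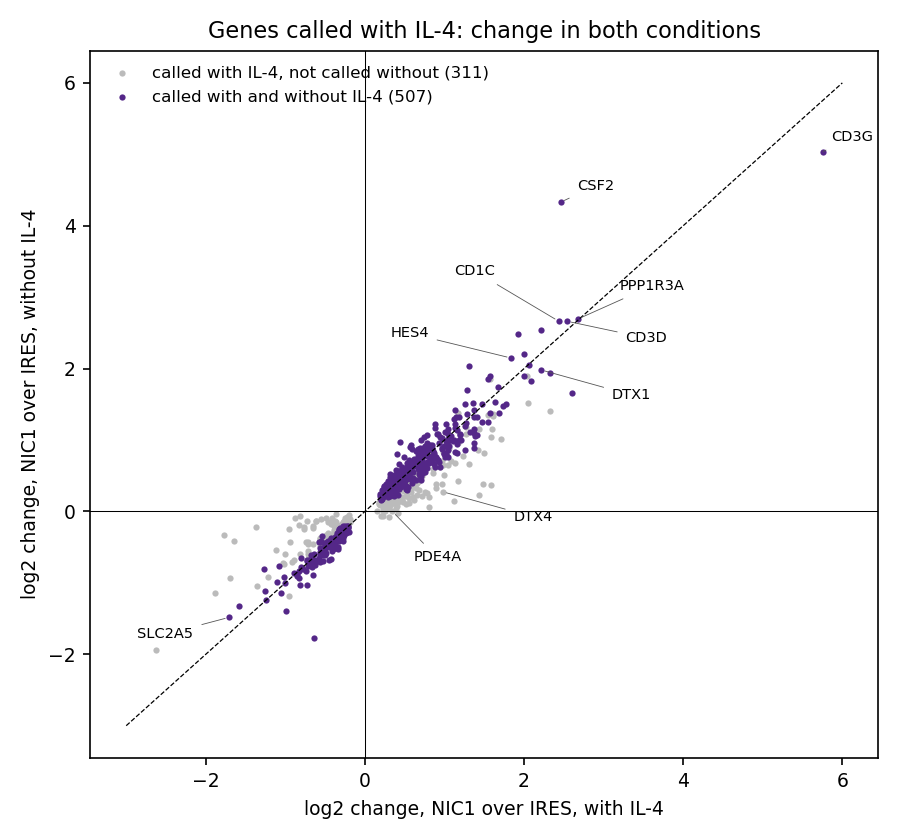
The 818 genes called with IL-4, with the log2 change of NIC1 over IRES with IL-4 on the x axis and without IL-4 on the y axis. Purple points (507) were called in both conditions and grey points (311) with IL-4 only, and the dashed line marks equal change. Most points lie close to that line, and CSF2 far above it rests on 25 NIC1 reads and 1 IRES read without IL-4.

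The opposite vector gives values to set beside these, with the caution that the DNMAML contrast uses the same 3 IRES libraries. DNMAML against IRES cells with IL-4 gave 14 calls (0.0931%). Of the 818 genes that differed between NIC1 and IRES cells, 10 were among these calls, each in the opposite direction. The genes that follow, HES1 apart, are from those 10, so most of the 818 had no called counterpart in DNMAML cells. MAF had 19.9 ± 4.25 CPM in NIC1 cells, 4.40 ± 1.20 CPM in DNMAML cells and 9.90 ± 2.68 CPM in IRES cells (SD, n = 3 each; log2 change -1.17 ± 0.16 for DNMAML over IRES, edgeR adjusted p = 0.00186). MMP7 had 121 ± 50 CPM in NIC1 cells, 25.7 ± 8.65 CPM in DNMAML cells and 49.6 ± 16.5 CPM in IRES cells (-0.95 ± 0.12, adjusted p = 0.0054), and CD36 had 34.8 ± 11.6 CPM in NIC1 cells, 11.0 ± 1.68 CPM in DNMAML cells and 21.3 ± 6.45 CPM in IRES cells (-0.94 ± 0.14, adjusted p = 0.0089). MMP2 had 69.6 ± 8.18 CPM in NIC1 cells, 169 ± 13.3 CPM in DNMAML cells and 127 ± 20.6 CPM in IRES cells (0.42 ± 0.073, adjusted p = 0.0246). IL13RA1 had 160 ± 27.0 CPM in NIC1 cells, 282 ± 77.3 CPM in DNMAML cells and 219 ± 60.5 CPM in IRES cells (0.36 ± 0.065, adjusted p = 0.0253). HES1 had 26.9 ± 4.79 CPM in NIC1 cells, 7.61 ± 3.92 CPM in DNMAML cells and 15.7 ± 6.84 CPM in IRES cells, but its DNMAML change did not pass (-1.05 ± 0.19, adjusted p = 0.0516).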

How the data were processed

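RNA-seq counts of 18 THP-1 libraries were used, 3 for each of NIC1, DNMAML and IRES with and without IL-4. The authors deposited 1 table of raw counts per library over 58051 Ensembl genes. Per the submitters' processing notes, FastQC, Trimmomatic, HISAT2, HTSeq and DESeq2 were used with GRCh38.p12, with versions, strand setting and annotation release not given in the sources used here. Entries that name no gene held 23.8 to 30.9% of reads and were left out, which left 12410668 to 15099788 counts per library. Gene symbols and positions are from GENCODE on GRCh38, and promoters are from RefSeq.

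All 18 libraries were fitted with edgeR 4.0.16 (R 4.3.3; TMM scaling, filterByExpr, robust quasi-likelihood), with group and experiment number as terms, and 15037 genes were tested. Calls had a Benjamini-Hochberg adjusted p under 0.05 over all tested genes, SE is the log2 change over the root of F, and CPM used TMM-scaled library sizes. The experiment numbers in the labels were taken as pairs because all 45 same-numbered pairs deviated together (correlations of 0.206 to 0.759). No pair of libraries agreed within sampling noise. Alternatives were limma-voom (limma 3.58.1), DESeq2 1.42.0, other scaling, no filter, no block and libraries left out, and the fit was tested on simulated data.

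Named genes were, among called genes with at least 2 CPM in either group and 1 sign in all experiments, the 20 largest rises, the 12 largest falls and the 6 most abundant in each direction, with called list members and a fixed set of genes. The groups, lists and genes were chosen with earlier results of these data known. Intervals cover counting error only. Figures used Python 3.11.15 and matplotlib 3.10.9.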

Additional observations from a re-analysis of the deposited data

How the results depend on the processing

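The count of 818 genes was within 1.5 times in limma-voom (851), DESeq2 (803), RLE scaling (812), the 6 libraries alone with the block (1004) and no filter on low counts (1195). The same held without a pair of other libraries (745), IRES replicate 3 without IL-4 and DNMAML replicate 3 with IL-4. This pair had 23179 and 25322 genes with at least 1 read, against 21110 to 21557 in the 6 compared libraries. With unscaled library sizes the split was 454 higher and 369 lower in NIC1, against 567 and 251, and the median of all genes moved by -0.0434 (log2). Without the replicate block there were 30 calls (26 higher, 4 lower), and in the 6 libraries alone without the block 0 (0 higher, 0 lower). Without experiment 2 there were 431 (290 higher, 141 lower). Leaving out 1 library gave 338 to 628 calls, 257 to 451 higher and 81 to 177 lower, and without the filter 406 were lower. The log2 change of NOTCH1 was 0.78 without the block (edgeR adjusted p = 0.184) and 0.77 in the 6 libraries alone without it (adjusted p = 0.290). The 254 IL-4 responsive genes called became 4 without the block, 428 without the filter and 121 without experiment 2. They became 115 to 196 without 1 library and 172 without that pair of other libraries. The difference between NIC1 effects with and without IL-4 gave 8 calls without the filter and 0 otherwise. The cause of these shifts was not tested.

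Each alternative was computed for the named genes, and among these the direction turned in IL4R, MAML1, MYC, CD209, CISH and SOCS1, none of which was called. Without experiment 2 IL4R was -0.054 and CD209 -0.084 (log2). With unscaled sizes MAML1 was -0.0043, MYC -0.013 and CD209 -0.016. Leaving out 1 library gave ranges of -0.035 to 0.20 for IL4R, -0.057 to 0.14 for MYC, -0.059 to 0.17 for CD209, -0.12 to 0.060 for CISH and -0.16 to 0.047 for SOCS1. At this depth, genes under 2 CPM rest on few reads per library.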

Other observations

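The gene families given here were picked after their values were seen, and some of their members also stand in the lists above. Of 10 tested ligands of the TNF superfamily, which signal between immune cells, 6 were higher in NIC1 cells and none lower. Beside LTB and TNF these were TNFSF18, TNFSF15, TNFSF4 and TNFSF14, of which TNFSF18 lost the call in 1 leave-out (adjusted p = 0.0714) and TNFSF14 in 2 (up to 0.0645). TNFSF4, the ligand of OX40, had 15.3, 13.8 and 17.2 CPM in NIC1 cells and 9.46, 8.04 and 11.2 CPM in IRES cells, with no overlap (0.70 ± 0.099, edgeR adjusted p = 0.000145). TNFSF15 had 10.2, 22.5 and 6.85 CPM in NIC1 cells and 3.35, 9.39 and 4.74 CPM in IRES cells (1.16 ± 0.18, adjusted p = 0.000423). Of 7 leukocyte immunoglobulin-like receptors, which tune myeloid activation, LILRB1, LILRA1 and LILRA2 rose, the last with a call lost in 5 leave-outs (adjusted p up to 0.103). LILRB1 had 14, 15.6 and 13.1 CPM in NIC1 cells and 5.65, 8.19 and 5.03 CPM in IRES cells (1.19 ± 0.13, adjusted p = 1.38e-05). Among 13 cathepsins, lysosomal proteases, CTSK, CTSF, CTSZ and CTSD fell while CTSW and CTSC rose, and CTSF, CTSD and CTSC lost the call in 2, 4 and 4 leave-outs (adjusted p up to 0.125). CTSK, which digests bone matrix, had 8.43, 4.99 and 7.07 CPM in NIC1 cells and 14.2, 8.34 and 10.3 CPM in IRES cells (-0.68 ± 0.13, adjusted p = 0.00206). Of 32 kinesin genes, KIF26A, KIF7, KIF4A, KIF13A and KIF2C fell and none rose, but KIF26A alone held in every leave-out and the other 4 lost the call in 4 or 5 (adjusted p up to 0.169). Some families were mixed, with 2 higher and 2 lower of 28 collagen chains, 2 and 2 of 12 S100A genes and 2 and 1 of 8 SIGLEC genes. Of 17 semaphorins 0 were higher and 1 lower. Calls were mostly higher among 21 DUSP phosphatases (6 higher and 1 lower). They were all higher among 5 CD300 genes (2) and 15 phosphodiesterases (3).

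Other genes, also picked after their values were seen, concern growth factors, kinases and cytotoxic proteins. FLT1, a receptor for vascular endothelial growth factor, had 221, 433 and 263 CPM in NIC1 cells and 96.1, 192 and 152 CPM in IRES cells (1.05 ± 0.11, edgeR adjusted p = 6.92e-05). PDGFB, a chain of platelet-derived growth factor, had 45.8, 77.8 and 56.3 CPM in NIC1 cells and 13.6, 33.7 and 24.0 CPM in IRES cells (1.39 ± 0.19, adjusted p = 0.000614). Both showed no overlap between constructs and were called in every leave-out. The Src family kinase genes SRC (0.69 ± 0.11, adjusted p = 0.00115) and FGR (0.97 ± 0.14, adjusted p = 0.000531) rose, and both were called in every leave-out. SERPINB9, which inhibits granzyme B, had 12.5, 33.0 and 15.1 CPM in NIC1 cells and 3.35, 11.7 and 5.83 CPM in IRES cells (1.57 ± 0.16, adjusted p = 4.31e-06). GZMB, which encodes granzyme B itself, had 2.88, 4.04 and 2.31 CPM in NIC1 cells and 0.525, 1.58 and 1.46 CPM in IRES cells (1.42 ± 0.35, adjusted p = 0.0174; up to 0.13 in 3 leave-outs).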
